A study of Mus musculus with 8 samples.

Results

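Oxidative phosphorylation is carried out by complexes I to V of the inner mitochondrial membrane. Complexes I, III and IV pass electrons to oxygen and pump protons, complex II feeds electrons in from succinate, and complex V, the ATP synthase, uses the proton gradient to make ATP. Most of their subunits are encoded in the nucleus and imported, a few core subunits are encoded on the mitochondrial chromosome, and several subunits of complexes IV and V exist as isoforms from separate genes with tissue-specific use. In the gut epithelium, absorptive cells are rich in mitochondria. The genes described here are the protein-coding genes whose symbol starts with Nduf, Uqcr, Atp5, Cox4, Cox5, Cox6, Cox7 or Cox8, or is Sdha, Sdhb, Sdhc, Sdhd or Cyc1. They number 94 of the 45706 genes counted. They comprise 7 core and 29 accessory subunits of complex I, 8 complex I assembly factors (Ndufaf1 to Ndufaf8), 4 subunits of complex II, 9 of complex III, 20 of complex IV and 17 of complex V. Ndufa4 and Ndufa4l2 were counted with complex IV, where the protein is now placed. Atp5s, counted with complex V, is not a structural subunit.

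Crypts, the glands at the base of the intestinal epithelium, were isolated with EDTA from the small intestine (SI) and the colon (COL) of 4 wild type C57BL/6N mice, without treatment or culture. Each mouse gave 1 SI and 1 COL library of total RNA. Libraries are numbered by replicate; replicate 4 of both tissues is labelled as donor mouse 5. The mice of replicates 1 and 4 were female and those of replicates 2 and 3 male, and no ages are given. The study asked how crypts of both tissues differ in their basal state. The libraries held 15969428 to 32908060 counts. In bulk RNA of this kind, fewer cells of a type and less RNA per cell cannot be told apart. The tissue labels were checked against markers. All 8 enterocyte markers tested were higher in SI, where their summed level was 59500 to 140400 CPM (counts scaled to a library's total by TMM) against 245.7 to 877.6 CPM in COL. Of 6 colonocyte markers, 4 were higher in COL and 1, Ceacam20, was higher in SI. Crypt stem cell markers, led by Olfm4 in SI, summed to 30.71 to 310.4 CPM in SI and 38.97 to 54.45 CPM in COL, and no marker of the lists examined for the epithelial types was at 0 throughout. Immune cell markers summed to 4230 to 13040 CPM in SI and to 24.47 to 176.5 CPM in COL, nearly all of it Cd74 in SI; their part in the results was not tested.

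The libraries differed in the share of counts from the mitochondrial chromosome. It was 22.7% to 50.8% in SI2, SI3, COL1 and COL2, and 4.83% to 7.35% in SI1, SI4, COL3 and COL4. In SI the libraries with the high share are those of both male mice, so share and sex cannot be told apart there. In COL they are 1 female and 1 male library. Markers split the SI libraries in the same way. In SI1 and SI4 against SI2 and SI3, enterocyte markers summed to 140400 and 107800 against 59500 and 60900 CPM. Goblet cell markers summed to 10860 and 8117 against 2676 and 4050 CPM, and proliferation genes to 112 and 297 against 497 and 440 CPM. Cell makeup thus cannot be told apart from share and sex in SI either. Differences without COL1 and COL2, and within each kind of library, are given further on for the genes with the largest values.

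Of the 94 genes, 88 had enough counts to be tested. Their median log2 fold change of SI over COL was 0.36, or 1.28-fold, where the median over all 14491 genes tested was -0.09; with scaling by library size alone both shifted, to -0.44 and -0.82. The log2 fold change was above 0 for 72 genes and below 0 for 16. Over all genes tested it was above 0 for 6756 and below 0 for 7735. This split depends on the scaling, since the median of the 88 genes was below 0 with library size alone. Few of the differences of the 88 genes passed the test over the 8 libraries, which did not pair SI and COL by mouse. By edgeR's quasi-likelihood test with an adjusted p below 0.05, 3 of 88 genes (3.41%) were higher in SI, against 15.5% of all genes, and 1 (1.14%) was higher in COL, against 12.9%. In both directions together 4 genes (4.55%) passed, against 28.4% of all genes. The 4 genes were Cox7a1, Sdhc and Ndufb3, higher in SI, and Ndufaf2, higher in COL. Every SI library lay above every COL library for 16 of the genes (18.2%), against 17.8% of all genes, and every SI library lay below every COL library for 1 (1.14%), Ndufaf5, against 15.7%. The value was higher in SI in all 4 mice for 31 genes and lower in all 4 for 4. The same counts were not made over all genes tested, so whether they exceed the background is not known.

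**Figure D1:**
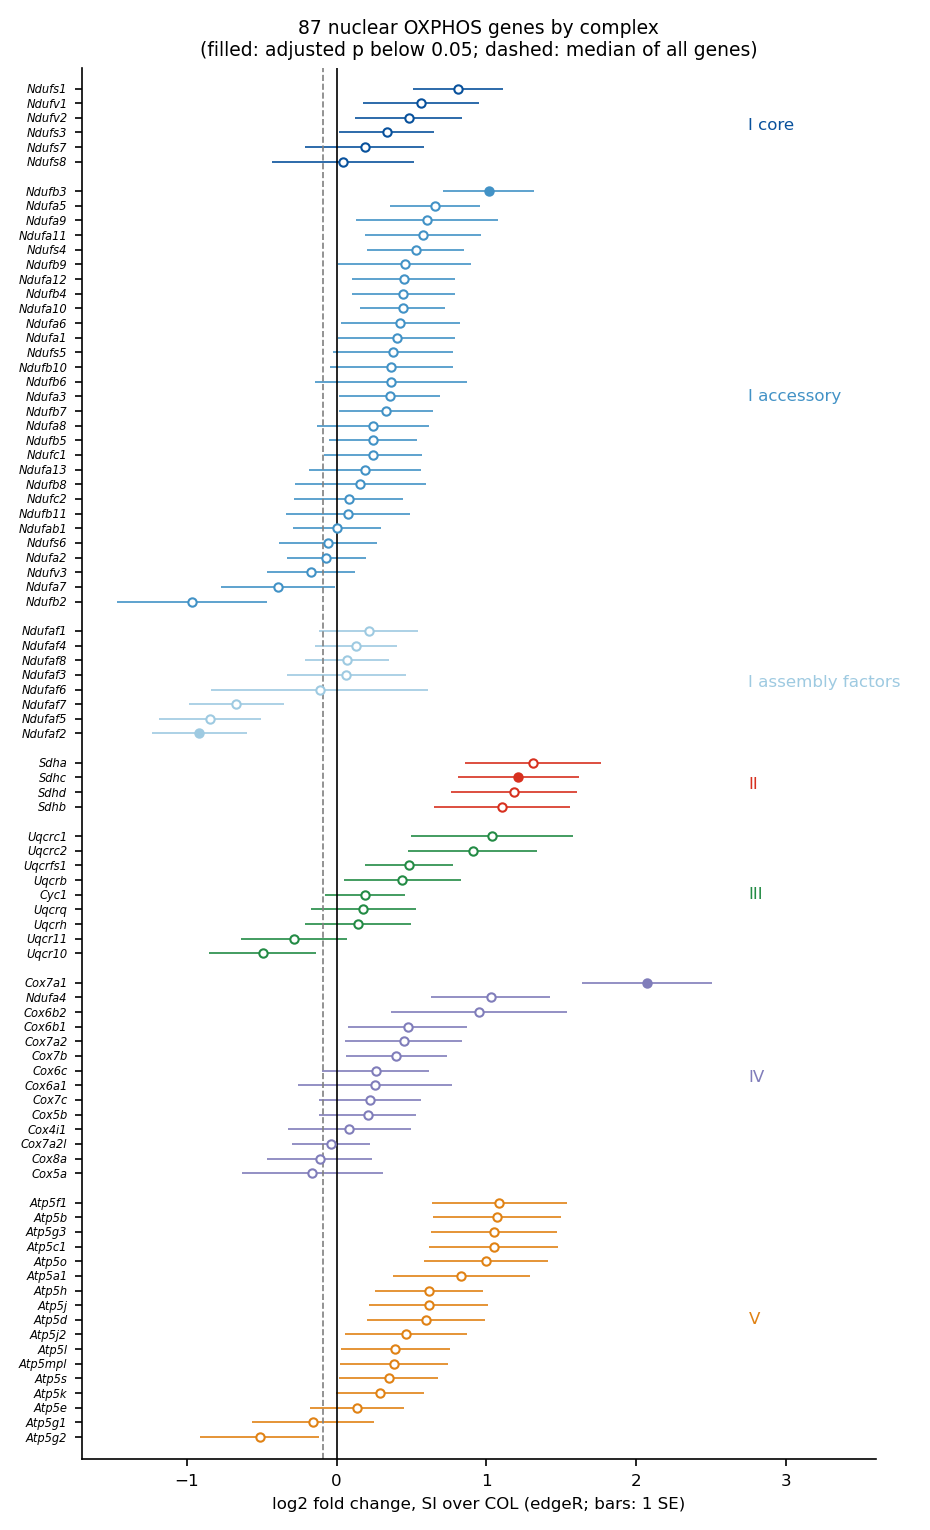
Log2 fold change of SI over COL (x axis) of 87 of the 88 genes tested, grouped by complex, with bars of 1 standard error and filled points for an adjusted p below 0.05. The 4 complex II genes lie between 1.10 and 1.31, and Cox7a1 lies farthest to the right at 2.07.

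Complex II, succinate dehydrogenase, had the highest median of the 7 classes. It oxidises succinate to fumarate within the tricarboxylic acid cycle and has no subunit encoded on the mitochondrial chromosome. All 4 genes had every SI library above every COL library, with log2 fold changes of 1.10 to 1.31 and a median of 1.20. Sdha, the flavoprotein with the active site, was at 1011, 872, 977 and 1032 CPM in SI1 to SI4 and at 205, 190, 585 and 589 CPM in COL1 to COL4. The SI values lay close together, while COL1 and COL2 were far below COL3 and COL4. Sdhb, the iron-sulfur subunit, was at 936, 641, 744 and 714 CPM in SI and at 219, 146, 522 and 525 CPM in COL. Sdhc, a membrane anchor with part of the ubiquinone site, was at 511, 317, 404 and 401 CPM in SI and at 155, 70.5, 241 and 237 CPM in COL. Sdhd, the other anchor, was at 847, 522, 847 and 745 CPM in SI and at 228, 158, 450 and 468 CPM in COL. In all 4 genes COL2 was thus the lowest library, and COL3 and COL4 were nearest to SI.

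Sdhc passed the test, with a log2 fold change of 1.21 (SE 0.41, adjusted p = 0.0439). Sdha had the larger value of 1.31 (SE 0.46) with an adjusted p of 0.0513, and Sdhd had 1.18 (SE 0.42) with 0.0562, so neither passed; with the mouse as a block their adjusted p-values were 0.0441 and 0.0457. Sdhb, at 1.10 (SE 0.45), did not pass in either fit (adjusted p = 0.0915 and 0.0761). Sdhc no longer passed when SI1, SI3, SI4, COL1 or COL4 was left out (adjusted p up to 0.111), or when COL1 and COL2 were left out together (log2 fold change 0.77, adjusted p = 0.0942). It also did not pass with no filter on counts (1.15, adjusted p = 0.0792) or with scaling by library size alone (0.40, adjusted p = 0.482). Within a library, where scaling plays no part, complex II took 10.5% to 11.1% of the counts of the 94 genes in SI and 5.35% to 7.79% in COL. The ratio of its counts to those of the core and accessory subunits of complex I was 0.485 to 0.548 in SI and 0.219 to 0.313 in COL. Neither range overlapped, and the lowest COL values were those of COL1 in both measures. Such a separation was not particular to complex II. Complex V took 34.5% to 36.6% in SI and 29.97% to 31.42% in COL. Complex IV took less in SI, 18.18% to 19.84% against 22.36% to 24% in COL. The shares of complex I accessory subunits and assembly factors were also lower in SI without overlap. Those of complex I core subunits and complex III overlapped. The mean difference in log2 CPM between SI1 and SI4 and COL3 and COL4 was 0.80 in Sdha, 0.64 in Sdhb, 0.92 in Sdhc and 0.79 in Sdhd. Between SI2 and SI3 and COL1 and COL2 it was 1.78 to 2.23.

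**Figure D2:**
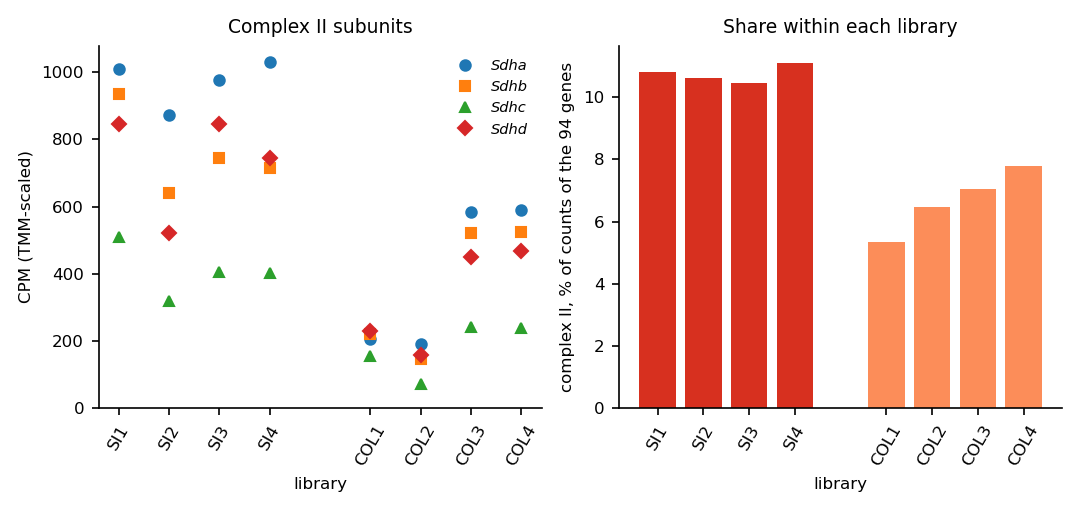
Left, CPM of Sdha, Sdhb, Sdhc and Sdhd (y axis) in each library (x axis). Right, bars of the percent of the counts of all 94 genes that complex II took in each library, 10.5% to 11.1% in SI and 5.35% to 7.79% in COL.

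Complex IV, cytochrome c oxidase, held the largest single difference. Its subunit VIIa is made from Cox7a1, the isoform known from heart and skeletal muscle, or from Cox7a2, the isoform of most other tissues. Cox7a1 was at 184.0, 145, 160 and 119 CPM in SI1 to SI4 and at 26.5, 12.4, 60.3 and 45.2 CPM in COL1 to COL4. The groups did not overlap, and the log2 fold change was 2.07 (SE 0.44, adjusted p = 0.00423), or 4.21-fold. Cox7a1 also passed in every alternative fit run, and without COL1 and COL2 it had 1.52 (adjusted p = 0.00633). Its exons overlapped no other gene and none of its 50-base stretches occurred in another gene. Stromal and muscle markers summed to 3.617 to 14.38 CPM in SI and 6.19 to 16.04 CPM in COL. Cox7a2 was at 348, 233, 331 and 274 CPM in SI and at 180, 91.7, 301 and 295 CPM in COL. Its log2 fold change was 0.45 (SE 0.39, adjusted p = 0.428). The Cox7a2 values overlapped between the tissues. Per kilobase of transcript, the mean level of Cox7a1 was 387 CPM in SI, near the 450 CPM of Cox7a2, while in COL it was 91.8 CPM against 329 CPM.

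The use of both isoforms was also compared within libraries. Cox7a1 took 34.6%, 38.4%, 32.5% and 30.3% of the counts of both genes in SI1 to SI4 and 12.8%, 11.9%, 16.7% and 13.3% in COL1 to COL4. COL1 and COL2, which stood apart in the level of each gene, did not stand apart from COL4 in this share. The log2 ratio of Cox7a2 to Cox7a1 was 0.96 ± 0.22 (SD, n = 4) in SI and 2.67 ± 0.24 (SD, n = 4) in COL (exact permutation test, two-sided, p = 0.0286, which 4 against 4 cannot go below, and 0.0571 adjusted over the 6 isoform pairs tested). It was lower in SI in 4 of 4 mice, and the exact sign-flip test within mice gave 0.125, the smallest that 4 mice allow. The third gene of the family, Cox7a2l, is known as a factor that joins complexes III and IV into supercomplexes. Its RNA level, which is no measure of that function, was 95.9, 150, 113 and 112 CPM in SI and 109, 102, 136 and 135 CPM in COL. Its log2 fold change was -0.04 (SE 0.26, adjusted p = 0.932), and its ratio to Cox7a2 overlapped between the tissues (exact permutation p = 0.171).

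The 250 bases before the start sites of Cox7a1 and Cox7a2 are shown because both genes encode the same subunit and differed in their tissue pattern. They are from RefSeq (GRCm38.p6), 5′ to 3′ on the strand of each gene, at chr7:30183921-30184170 (plus strand) and chr9:79759854-79760103 (minus strand). Neither holds any of the motifs searched below.
Cox7a1: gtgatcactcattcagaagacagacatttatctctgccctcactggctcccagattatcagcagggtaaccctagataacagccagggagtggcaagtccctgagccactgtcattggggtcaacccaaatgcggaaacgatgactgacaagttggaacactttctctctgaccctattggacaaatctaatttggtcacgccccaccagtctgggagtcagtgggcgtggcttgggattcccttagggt
Cox7a2: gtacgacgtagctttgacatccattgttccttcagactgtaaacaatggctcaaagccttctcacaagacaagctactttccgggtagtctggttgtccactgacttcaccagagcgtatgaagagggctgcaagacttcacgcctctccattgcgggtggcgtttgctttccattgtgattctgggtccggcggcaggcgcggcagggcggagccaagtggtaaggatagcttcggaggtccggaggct

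The other complex IV genes differed less. Ndufa4, a late-added subunit of complex IV, was at 328, 224, 315 and 326 CPM in SI and at 134, 56.6, 192 and 201.5 CPM in COL. The groups did not overlap, and its log2 fold change of 1.03 (SE 0.40) had an adjusted p of 0.0742, or 0.0408 with the mouse as a block. Of the 14 complex IV genes tested, Cox7a1 alone passed in the unblocked fit, and the median log2 fold change was 0.26. The lowest values were those of Cox5a, -0.16 (SE 0.47, adjusted p = 0.831), and Cox8a, -0.11 (SE 0.35, adjusted p = 0.845). Cox6a1 had the highest level per kilobase of the complex, 2066 CPM in SI and 1732 CPM in COL. Cox5a, which encodes a subunit that every complex IV holds, was counted at a mean of only 6.44 CPM in SI and 7.18 CPM in COL, where 32.0% of its 50-base stretches also occur in another gene. Whether that sharing lowered its counts was not tested.

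Apart from Cox7a1, most isoforms known from muscle, lung or testis had few counts. The 6 genes with too few counts to test were all of complex IV: Cox4i2, the lung isoform of subunit IV; Cox6a2, the muscle isoform of VIa; Cox7b2 and Cox8c, known from testis; Cox8b, a muscle isoform; and Ndufa4l2, a paralog of Ndufa4 induced by hypoxia. No library held more than 19 counts of Cox6a2 or more than 7 of any of the others. Cox6b2, the testis isoform of VIb, passed the filter on counts at 13.9, 3.63, 2.28 and 13.6 CPM in SI and at 4.99, 1.93, 5.16 and 5.13 CPM in COL. SI1 and SI4, the female libraries and those with the low mitochondrial share, were above the other 6. The ubiquitous Cox6b1 was at 364 to 514 CPM in SI and 136 to 441 CPM in COL. The ratio of Cox6b1 to Cox6b2 overlapped between the tissues, with a difference of -0.05 on the log2 scale (exact permutation p = 0.971). Cox4i1, Cox7b and Cox8a, the ubiquitous partners of the isoforms that were not tested, had log2 fold changes of 0.08, 0.40 and -0.11, none of which passed.

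**Figure D3:**
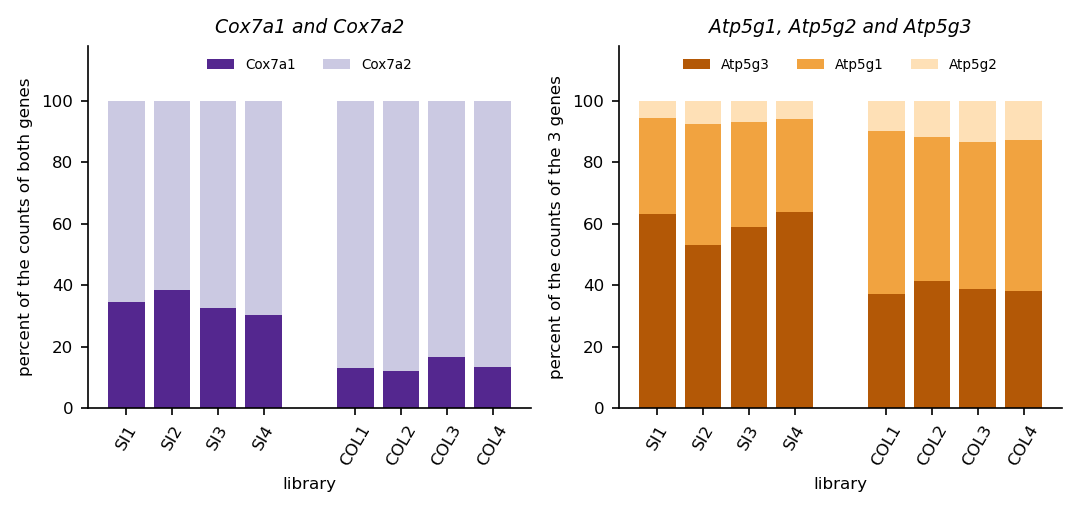
Stacked bars of the percent of counts (y axis) in each library (x axis): left, Cox7a1 and Cox7a2; right, Atp5g1, Atp5g2 and Atp5g3. Cox7a1 takes 30.3% to 38.4% in SI and 11.9% to 16.7% in COL, and Atp5g3 takes 52.9% to 63.7% in SI and 37.0% to 41.2% in COL.

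Complex V, the ATP synthase, had a median log2 fold change of 0.60, with 15 of 17 genes above 0, but no gene passed the test (0 at an adjusted p below 0.05 with edgeR, 5 at an unadjusted p below 0.05, which 39.8% of all genes had). By part of the enzyme, the median was 0.83 in the 5 genes of the catalytic F1 head, 0.81 in the 4 of the peripheral stalk, 0.39 in 4 small membrane subunits and -0.16 in the 3 c-ring genes. Atp5b, the catalytic beta subunit and the complex V gene with the highest level per kilobase in SI, was at 1964, 1593, 1750 and 1982 CPM in SI and at 697, 472, 1375 and 924 CPM in COL. No SI library fell below a COL library, and the log2 fold change was 1.07 (SE 0.43, adjusted p = 0.0845). Atp5f1, the b subunit of the stalk, had 1.09 (SE 0.45, adjusted p = 0.0940), also without overlap. Of the 50-base stretches of Atp5f1 38.7% also occur in another gene, as do 34.0% of those of Atp5o, another stalk subunit. The part of this sharing in their levels was not tested. With limma-voom and with DESeq2, 13 of the 88 genes were higher in SI, against 17.4% and 17.6% of all genes. In both, these included Atp5b, Atp5c1, Atp5f1, Atp5g3 and Atp5o of complex V, all 4 complex II genes, Cox7a1, Ndufa4, Ndufb3 and Ndufs1. With the mouse as a block in edgeR, 6 were higher in SI, against 15.3% of all genes: Cox7a1, Ndufa4, Ndufb3, Sdha, Sdhc and Sdhd.

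The c-ring subunit of complex V is made from Atp5g1, Atp5g2 and Atp5g3, which encode the same mature protein with different import signals. Atp5g3 was at 775, 444.5, 736 and 678 CPM in SI and at 280, 132, 433 and 423 CPM in COL, without overlap (log2 fold change 1.05, SE 0.42, adjusted p = 0.0840). Atp5g1 was at 385, 331, 424 and 324 CPM in SI and at 403, 151, 532 and 548 CPM in COL, and its log2 fold change was -0.16 (SE 0.41, adjusted p = 0.808). Atp5g2 had -0.51 (SE 0.40, adjusted p = 0.368). Only Atp5g3 of the 3 thus separated the tissues. Within libraries, Atp5g3 took 63.0%, 52.9%, 59.0% and 63.7% of the counts of the 3 genes in SI and 37.0%, 41.2%, 38.8% and 38.0% in COL. The log2 ratio of Atp5g1 to Atp5g3 was -0.82 ± 0.29 (SD, n = 4) in SI and 0.35 ± 0.14 (SD, n = 4) in COL (exact permutation p = 0.0286, 0.0571 adjusted over the 6 pairs). The log2 ratio of Atp5g2 to Atp5g3 was lower in SI by 1.49 (exact permutation p = 0.0286, 0.0571 adjusted), while that of Atp5g1 to Atp5g2 differed by 0.32 (exact permutation p = 0.114, 0.171 adjusted). Both ratios to Atp5g3 were lower in SI in 4 of 4 mice, and neither depends on scaling. Of the 50-base stretches of Atp5g1 66.0% also occur in another gene, mostly processed pseudogenes, as do all of those of Atp5g2 and none of those of Atp5g3. The part of this sharing in the levels was not tested.

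Complex I, the NADH dehydrogenase, had a median log2 fold change of 0.48 in its core subunits, 0.35 in its accessory subunits and -0.02 in its assembly factors. Ndufb3, an accessory subunit of the membrane arm, was the only complex I subunit to pass. It was at 99.5, 63.4, 99.9 and 82.9 CPM in SI and at 41.2, 24.0, 54.3 and 51.2 CPM in COL, without overlap. Its log2 fold change was 1.02 (SE 0.31, adjusted p = 0.0274). It did not pass without SI1, SI3, SI4 or COL1 (adjusted p up to 0.0730), or without both COL1 and COL2 (0.71, adjusted p = 0.0885), or with no filter (0.96, adjusted p = 0.0762) or scaling by library size alone (0.22, adjusted p = 0.623). Of the core subunits, Ndufs1, an iron-sulfur subunit of the NADH-oxidising arm, had the highest value, 0.81 (SE 0.30, adjusted p = 0.0669). It was at 142, 138, 169 and 161 CPM in SI and at 53.5, 71.0, 113 and 110 CPM in COL, again without overlap. The iron-sulfur subunits Ndufs7 and Ndufs8 had the lowest values of the core, 0.19 (SE 0.40) and 0.04 (SE 0.48). Ndufs8 was at 120, 46.2, 255 and 279 CPM in COL, so that COL3 and COL4 exceeded all SI libraries and COL1 and COL2 lay below them.

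Among the accessory subunits, 24 of 29 had a log2 fold change above 0. Ndufa5 followed Ndufb3 with 0.66 (SE 0.30, adjusted p = 0.125). The lowest values were those of Ndufb2, -0.97 (SE 0.50, adjusted p = 0.175), and Ndufa7, -0.39 (SE 0.38, adjusted p = 0.485). Ndufb2 was counted at only 1.63, 4.83, 2.89 and 1.83 CPM in SI and 4.61, 9.70, 4.57 and 3.04 CPM in COL. Of its 50-base stretches 33.5% occur in another gene. Its highest value was in COL2, the library in which most of the other genes were lowest. Ndufa6 had the highest level per kilobase of the accessory subunits, 496 CPM in SI and 369 CPM in COL. It overlapped between the tissues.

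The complex I assembly factors help to build the complex and are not part of it. Ndufaf2, a chaperone related to the subunit Ndufa12, was the only gene of the 94 that was higher in COL. It was at 7.79, 8.94, 15.3 and 9.75 CPM in SI and at 23.6, 12.1, 22.1 and 20.9 CPM in COL, lower in SI in 4 of 4 mice although SI3 exceeded COL2. Its log2 fold change was -0.92 (SE 0.32, adjusted p = 0.0497), and with the mouse as a block its adjusted p was 0.0558. Leaving out any library but SI3 or COL2 also ended the call (adjusted p up to 0.134). In the annotation, 65.6% of its exon bases also lie in exons of the gene B230220B15Rik, so its counts are uncertain. Ndufaf5, which hydroxylates the core subunit Ndufs7, was at 3.35 to 5.86 CPM in SI and 6.28 to 11.7 CPM in COL without overlap. Its log2 fold change was -0.85 (SE 0.34, adjusted p = 0.0866). Ndufaf7, a methyltransferase, had -0.67 (SE 0.32, adjusted p = 0.141) and was lower in SI in 4 of 4 mice. The highest values among the factors were those of Ndufaf1, 0.21, and Ndufaf4, 0.13, neither of which passed. Ndufaf8, the partner of Ndufaf5, had the highest level per kilobase, 35.8 CPM in SI and 34.1 CPM in COL.

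Complex III, cytochrome bc1, had a median of 0.19 and no gene that passed (0 at an adjusted and 0 at an unadjusted p below 0.05 with edgeR, and 0 by DESeq2 or limma-voom). With the mouse as a block in limma-voom, Uqcrc1 and Uqcrc2 were among 15 of the 88 genes higher in SI, against 17.5% of all genes. Uqcrc1, core protein 1, was at 1684, 1109, 1595 and 1519 CPM in SI and at 366, 233, 1170 and 1106 CPM in COL. COL3 exceeded SI2 and COL4 lay just below it, and the log2 fold change was 1.04 (SE 0.54, adjusted p = 0.177). Uqcrc2, core protein 2, did not overlap between the tissues and had 0.91 (SE 0.43, adjusted p = 0.140). Of its 50-base stretches 24.8% also occur in another gene. The small subunits Uqcr10 and Uqcr11 had -0.49 (SE 0.36, adjusted p = 0.337) and -0.28 (SE 0.36, adjusted p = 0.592). Uqcr10 was at 306, 222, 330 and 230 CPM in SI and at 400, 194, 508 and 429 CPM in COL. Uqcrq, a small subunit with a log2 fold change of 0.18, had the highest level per kilobase of the complex in SI, 956 CPM, while in COL its 844 CPM lay below the 882.5 CPM of Uqcr10.

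Most of these genes shared a pattern among the COL libraries. COL1 and COL2 both lay below COL3 and COL4 for 72 of the 88 genes (81.8%), while this was so for 34.6% of all genes tested. COL2 was the lowest of the 8 libraries for 78 genes (88.6%), against 20.9% of all genes. The median deviation of the 88 genes from their own means was -1.19 in COL2 and -0.26 in COL1 on the log2 scale, against 0.34 in COL3 and 0.18 in COL4. In SI1 to SI4 it was 0.42, -0.06, 0.42 and 0.10. Over all genes, the same median stayed between -0.09 and 0.14 in every library. The 94 genes took 0.881% of all counts in COL2, 2.18% in COL1, 3.32% in COL3 and 3.39% in COL4, and 1.73% to 2.26% in SI. The ratio of counts of the 13 mitochondrially encoded subunits to those of the 94 nuclear genes ran from 0.795 in COL4 to 29.3 in COL2. The colonocyte markers summed to 6468 CPM in COL1, 5246 CPM in COL2, 32210 CPM in COL3 and 17180 CPM in COL4. Most of that sum was Car1, at 5998, 2632, 30000 and 15640 CPM. The other markers did not follow it: Aqp8, Slc26a3, Saa1 and Ceacam20 were highest in COL2, and all 5, with Car4, were lowest in COL1. The goblet cell markers summed to 12230 to 22440 CPM in all 4. The part of cell makeup, RNA quality or the mitochondrial share in this pattern was not tested.

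**Figure D4:**
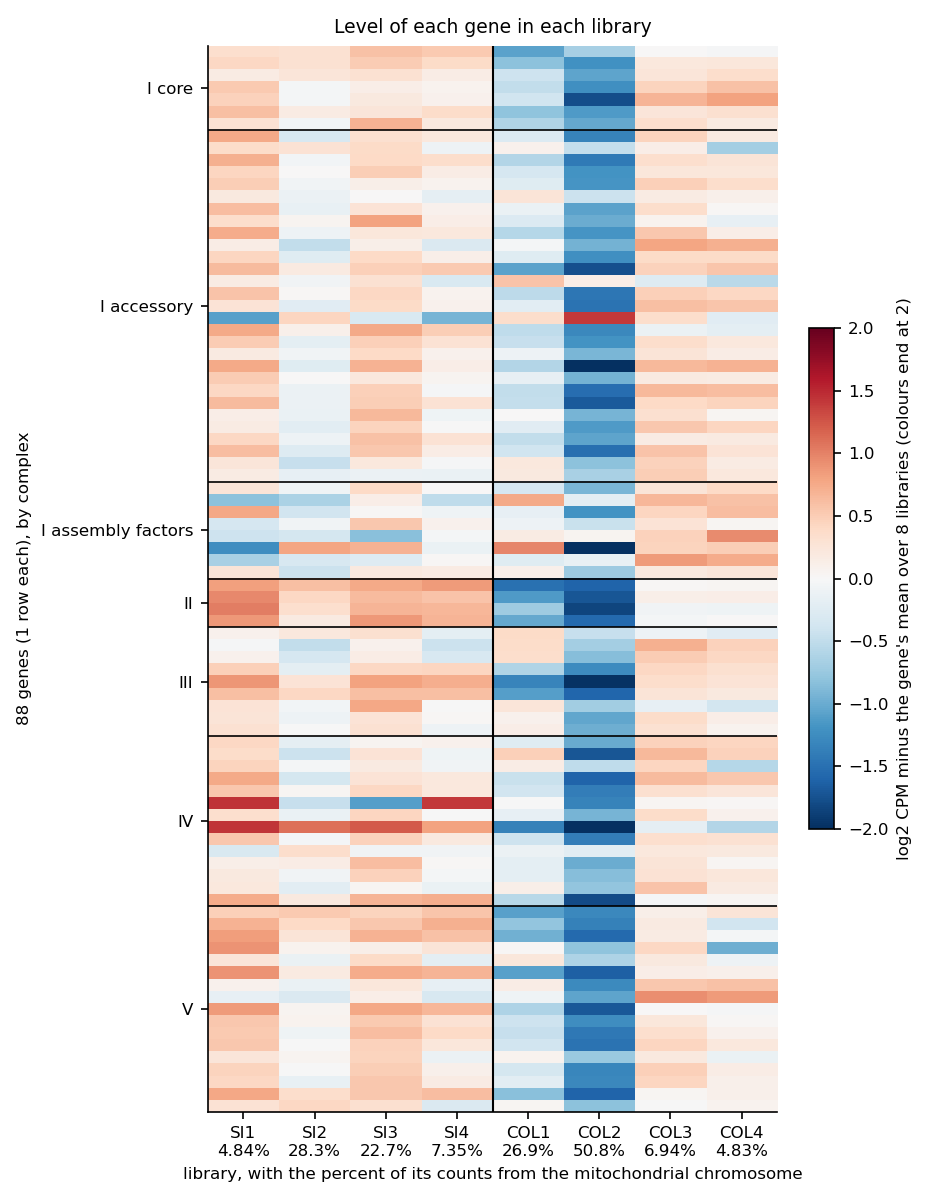
Heat map of the log2 CPM of each of the 88 genes (1 row each, by complex) minus its own mean, in each library (columns, with the percent of counts from the mitochondrial chromosome). COL2, with 50.8% mitochondrial counts, is the lowest library for 78 of the rows, and complex II is above its mean in all 4 SI libraries.

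The comparison of tissues was repeated within each kind of library. Between SI2 and SI3 and COL1 and COL2, the libraries with the high mitochondrial share, the median difference of the 88 genes was 0.93 in log2 CPM and 81 genes were higher in SI. Between SI1 and SI4 and COL3 and COL4, it was 0.01 and 44 genes were higher in SI. Over all 14491 genes tested, the medians were 0.03 and -0.12, and 7427 and 6666 genes were higher in SI. The median difference was thus close to 0 against COL3 and COL4, and the part of the mitochondrial share, sex or cell makeup in this was not tested. Complex II was again apart, with medians of 1.88 and 0.80 and all 4 genes higher in SI in both. The F1 head had 1.54 and 0.65, the c-ring 0.60 and -0.61, and the assembly factors 0.35 and -0.61. Uqcrc1 had 2.19 and 0.49, Cox7a1 3.06 and 1.50, and Cox6b2, against the trend, -0.11 and 1.40.

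**Figure D5:**
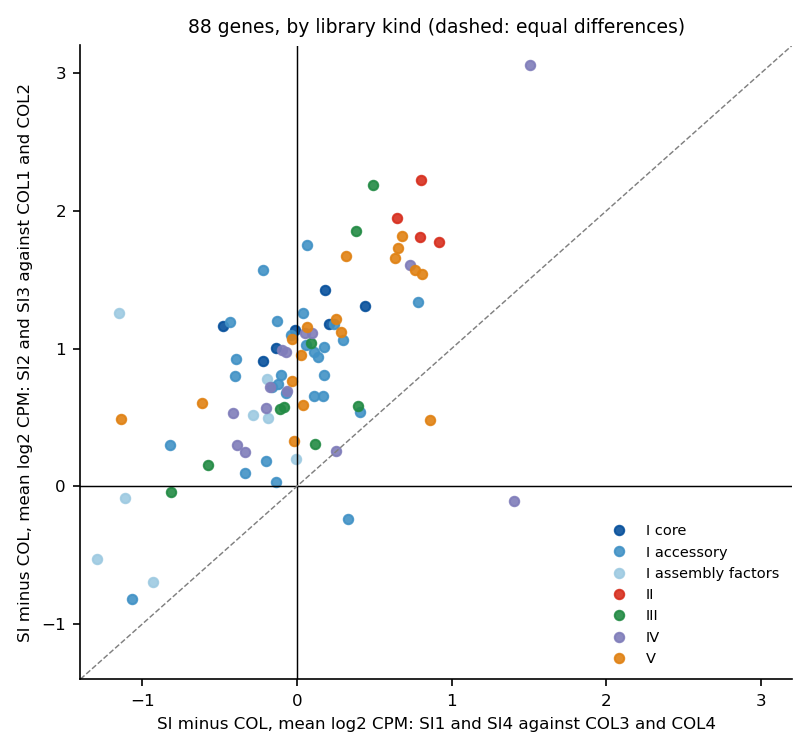
Difference of SI minus COL in mean log2 CPM for each of the 88 genes, in the libraries with a low (x axis) and a high (y axis) mitochondrial share, coloured by complex, with a dashed line where both are equal. The medians are 0.01 and 0.93, and the 4 complex II genes lie at 0.64 to 0.92 on the x axis.

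When COL1 and COL2 were left out, which was decided after the data had been examined, the median of the genes was -0.02, and that of all genes 0.05. Then 1 gene was higher in SI, Cox7a1, against 12.0% of all genes, and 4 were higher in COL, against 10.5%: Atp5g2, Ndufa7, Ndufaf2 and Ndufaf7. Without these libraries the log2 fold change was 0.66 in Atp5b, 0.53 in Atp5f1, 0.60 in Ndufa4, 0.45 in Ndufs1, 0.37 in Uqcrc1 and 0.33 in Uqcrc2, and none of the 6 passed. With SI1, SI4, COL3 and COL4 alone, the median was 0.01, 9 genes were higher in SI, against 18.7% of all genes, and 5 were higher in COL, against 18.3%. Those higher in SI were Atp5g3, Cox6a2, Cox6b2, Cox7a1, Ndufa4, Ndufb3, Sdha, Sdhc and Sdhd, and Uqcr10 joined the 4 higher in COL. Cox6a2 met the filter on counts here only through SI, with 12 and 19 counts in SI1 and SI4. COL3 and COL4 held 2 and 0, so nothing is drawn from its call. With all 8 libraries and the mitochondrial share as a covariate, 18 were higher in SI, against 21.3% of all genes, among them all 4 complex II genes, 6 of complex V, and both Uqcrc1 and Uqcrc2.

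The 88 genes had a median transcript length of 823 bases against 2737 bases over all genes tested. Across the genes, Spearman's rho of length and log2 fold change was 0.30, and 0.15 with offsets for length and GC content. It was 0.02 over all genes tested. The genes share the same 8 libraries, so these are descriptions. With the offsets, 8 genes were higher in SI, against 17.1% of all genes, including all 4 of complex II, and 1 in COL, against 13.9%. Of the 94 genes, 31 share at least 10% of their 50-base stretches with another gene, often a processed pseudogene, and 46 share none. All 4 complex II genes share at most 0.1%.

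The promoters of respiratory chain genes are known for sites of NRF1, GABPA (an ETS factor), YY1 and the ERR receptors. In the RefSeq windows from 250 bases before to 50 bases after each start site, matched for 76 of the 94 genes, the NRF1 core GCGCATGCG was found in 10 genes (13.2%) against 1.95% of 27025 genes, on either strand. The YY1 core AAGATGGCG was found in 8 (10.5%) against 1.64%, the ETS core ACTTCCGG in 5 (6.58%) against 4.31%, and the ERR half-site core TCAAGGTCA in 2 (2.63%) against 0.466%. The letters of these motifs do not contain one another. The genes with an NRF1 match had a median log2 fold change of 0.25, those with YY1 0.35, those with ETS 0.14, and the 50 tested genes with none 0.37. The ERR matches were in Atp5g3 and Sdhd, with log2 fold changes of 1.05 and 1.18. A match is a run of letters and no measure of binding.

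The stretches below carry these letters in genes whose values are given above. The first 2 are the 250 bases before the start of Atp5g3 (chr2:73911327-73911576, minus strand) and of Atp5g2 (chr15:102671048-102671297, minus strand), c-ring genes with different tissue patterns. The others are 30-base windows at Sdhd (chr9:50603800-50603829, minus strand) and Uqcrc1 (chr9:108936668-108936697, plus strand). All are from RefSeq (GRCm38.p6), 5′ to 3′ on the strand of the gene, and capitals mark the ERR letters in Atp5g3 and Sdhd (read on the opposite strand) and the NRF1 letters in Atp5g2 and Uqcrc1 (both strands overlapping).
Atp5g3: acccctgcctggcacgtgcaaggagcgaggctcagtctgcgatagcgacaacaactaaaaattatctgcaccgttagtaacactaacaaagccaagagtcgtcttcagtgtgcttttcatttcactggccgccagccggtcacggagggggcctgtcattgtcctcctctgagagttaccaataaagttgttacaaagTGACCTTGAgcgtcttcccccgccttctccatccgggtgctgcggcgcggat
Atp5g2: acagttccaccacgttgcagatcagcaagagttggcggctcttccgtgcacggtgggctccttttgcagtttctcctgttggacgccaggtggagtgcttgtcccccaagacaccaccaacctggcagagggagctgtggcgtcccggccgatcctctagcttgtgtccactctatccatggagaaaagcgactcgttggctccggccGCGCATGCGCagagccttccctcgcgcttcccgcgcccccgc
Sdhd: tttccgggttgtagagTGACCTTGAgccct
Uqcrc1: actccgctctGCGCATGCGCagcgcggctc

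Genes around the respiratory chain were read from lists by function. Their counts are to be read against the 15.5% of all genes higher in SI and the 12.9% higher in COL. Of 13 genes of the tricarboxylic acid cycle outside complex II, 5 were higher in SI and 1, Suclg2, in COL, with a median log2 fold change of 1.10. The median difference was 1.91 between the libraries with the high mitochondrial share and 0.60 between those with the low share. The largest were Mdh2, malate dehydrogenase, at 2.60 (SE 0.55, adjusted p = 0.00452), Ogdh, of the oxoglutarate dehydrogenase complex, at 2.35 (SE 0.42, adjusted p = 0.00159), and Sucla2 at 2.33 (SE 0.40, adjusted p = 0.00124). Sucla2 encodes a subunit for the step that makes the succinate that complex II uses. The other subunit genes of this step were Suclg2, at -1.01 (SE 0.32, adjusted p = 0.0363), and Suclg1, at 0.18 (SE 0.41, adjusted p = 0.781). Of 7 carriers and pores, 3 were higher in SI and 1 in COL, with a median of 0.97. Cycs, cytochrome c, which carries electrons from complex III to IV, was higher in SI at 1.66 (SE 0.43, adjusted p = 0.0139). Slc25a4, an ADP/ATP carrier known from muscle, was higher in COL at -1.50 (SE 0.38, adjusted p = 0.0129), but at means of only 14.7 CPM in SI and 41.5 CPM in COL. Slc25a5, the ADP/ATP carrier with far more counts, was at means of 7785 CPM in SI and 2099 CPM in COL. Its log2 fold change was 1.89 (SE 0.65, adjusted p = 0.0504), which did not pass. Vdac2, an outer membrane pore, was higher in SI at 1.44.

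None of the 13 mitochondrially encoded subunits passed, with a median of -0.02 and standard errors of 0.61 to 1.06. The median standard error was 0.37 over the 88 nuclear genes and 0.42 over all genes tested. Of 36 assembly factors outside the 94, 6 were higher in SI and 1, Surf1, in COL, with a median of -0.03. Cox15, which makes the heme a of complex IV, had the largest value, 3.18 (SE 0.32, adjusted p = 3.8e-05), followed by Coa7 at 1.41 and Cox19 at 1.29. Of 17 regulators of mitochondrial gene expression, 4 were higher in SI and none in COL, with a median of 0.10. They were Ppargc1a, a coactivator that drives mitochondrial biogenesis, at 1.63 (SE 0.32, adjusted p = 0.00293), Polg2 at 1.26, Gabpa at 1.22 and Esrra at 1.03. The related coactivators Ppargc1b, at -1.04 (SE 0.39, adjusted p = 0.0669), and Pprc1, at -0.82 (SE 0.44, adjusted p = 0.188), lay below 0 and did not pass. Of 76 mitochondrial ribosomal proteins, 3 were higher in SI and 4 in COL, with a median of -0.18; Mrps6, at -1.76, Mrpl52, at -1.43, and Mrpl15, at 1.33, changed most. Genes that the symbol rule leaves out include Usmg5, a small complex V subunit, at 1.20 (SE 0.36, adjusted p = 0.0293), and Atpif1, the inhibitor of complex V, at 1.06 (SE 0.35, adjusted p = 0.0442), both higher in SI.

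The difference between the tissues was also compared between the sexes. By edgeR's test of the interaction of tissue and sex, with 2 mice of each sex, none of the 88 genes passed and none had an unadjusted p below 0.05. Over all 14491 genes, 0 passed and 761 had an unadjusted p below 0.05. By DESeq2 11 genes passed and by limma-voom 0, none of them among the 88. An unadjusted p below 0.05 was reached by 1 of the 88 with DESeq2 and by 1 without COL2. Without COL3 it was reached by 9, and by 1369 of 14901 genes in all, and none of these passed.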

How the data were processed

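RNA-Seq libraries of crypts from 4 mice were analysed as 4 SI and 4 COL samples, grouped by the labels. The submitters' processing notes name Trimmomatic 0.36, STAR 2.5.2b and the builds mm9 and mm10; the methods name mm10. The authors deposited raw counts per Ensembl gene, without normalization. The annotation used in counting and its use of the strand are not given in the sources used here. Symbols and transcripts came from GENCODE vM21, built on GRCm38 like mm10, which matched 45143 of 45706 identifiers, and promoter sequences from RefSeq. Members and lists were chosen with earlier results of these data known.

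The counts were fitted with edgeR 4.0.16 (R 4.3.3): TMM scaling, filterByExpr (10 counts in about 4 libraries, 15 in all), glmQLFTest of tissue, and Benjamini-Hochberg adjustment over 14491 genes with a threshold of 0.05. SE is the coefficient over the root of F. The methods name limma with no further setting; limma 3.58.1 (voom) and DESeq2 1.42.0 were alternatives, as were other scalings, filters, offsets for length and GC content, the mitochondrial share as a covariate and leaving out libraries. Log2 CPM used an offset of 0.1 CPM, and log2 ratios of isoforms an offset of 0.5 counts. Exact tests were two-sided over 70 assignments. Same-numbered SI and COL libraries come from the same mouse by the labels; their deviations from the tissue means correlated at -0.24, 0.39, -0.08 and 0.33. The replicate block was an alternative, since the methods name none. Counting error is small against the spread between mice at this depth, except in genes with few counts. The fits were tested on simulated data.

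Named were, per class, the 2 highest and 2 lowest log2 fold changes and the highest level per kilobase, all isoform pairs, untested genes and genes called in COL, and up to 3 called genes of each other list. Others were named after their values were seen. Of the genes tested, 1 entered the counts and medians but is not reported here.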

Additional observations from a re-analysis of the deposited data

Results flagged for a closer look

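In 7 of 76 groups of 4 libraries examined, over the 38 named genes tested, 1 library stood apart from the other 3 by Dixon's criterion. Chance gives about 1 in 20 for a single group. The genes share the same libraries, so the groups are not independent and 7 of 76 cannot be read against that rate. COL2 was low in Cox5a (1.80 CPM), Cox6b2 (1.93 CPM), Ndufaf8 (16.1 CPM) and Uqcr11 (153 CPM). SI2 was low in Ndufa4 (224 CPM), Ndufaf8 (19.8 CPM) and Uqcrc2 (425.5 CPM). In all 7 the library was the lowest of its tissue, and both libraries are those of mouse 2, which also had the highest mitochondrial share in each tissue, 50.8% in COL2 and 28.3% in SI2. The part of that share in these values was not tested.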

How the results depend on the processing

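The count of genes higher in SI (3) was 1 with library size alone and with no filter, 6 with the replicate block, 8 with length and GC offsets with or without the block, 13 with DESeq2 and with limma-voom, 15 with limma-voom and the block, and 18 with the mitochondrial share as a covariate. It was 1 without COL1 and COL2 and 9 with SI1, SI4, COL3 and COL4 alone, where Cox6a2 met the filter only through its SI counts. Leaving out single libraries gave 1 to 5. The count higher in COL (1) was 8 with library size alone, 2 with DESeq2, with at least 10 counts in every library and with the covariate, 0 with no filter and with the replicate block, 4 and 5 in the fits without the libraries above, and 0 to 1 without single libraries. Of all genes, 7.69% were higher in SI and 33.0% in COL with library size alone, 6.47% and 7.19% with no filter, 17.6% and 17.7% with DESeq2, 17.4% in SI with limma-voom, 17.1% in SI and 13.9% in COL with offsets, 16.8% and 13.3% with at least 10 counts in every library, and 21.3% and 16.8% with the covariate. In every fit run, the share of the respiratory chain genes called lay below that of all genes in each direction. The median (0.36) was -0.44 with library size alone, where the median of all genes was -0.82. The cause of these changes was not tested. Besides the calls of Sdha, Sdhd, Ndufa4 and Ndufaf2, the block changed no other call among the named genes in edgeR. The isoform ratios that reached 0.0286 gave 0.125 within mice, the smallest possible there.

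Changes of sign are given here only for the 38 named genes tested. With library size alone the genes that changed sign were Cox4i1 (-0.72), Cox6a1 (-0.56), Cox6b1 (-0.33), Cox7a2 (-0.36), Cox7b (-0.38), Ndufa5 (-0.12), Ndufa6 (-0.37), Ndufaf1 (-0.58), Ndufaf4 (-0.63), Ndufaf8 (-0.72), Ndufs7 (-0.62), Ndufs8 (-0.78) and Uqcrq (-0.62). Not all of them lay near 0 in the main fit, where Ndufa5 had 0.66 and Cox6b1 0.47. The median over the 88 genes was -0.44 with library size alone, so genes not listed here also changed sign. TMM without mitochondrially encoded genes, and without genes over 1% of any library, gave Ndufaf8 -0.019 and -0.020 and Ndufs8 -0.028 and -0.028. With no filter Ndufs8 was -0.032. At least 10 counts in every library gave Cox4i1 -0.017, Ndufaf8 -0.040 and Ndufs8 -0.047. Atp5g1 was 0.080 and Cox8a 0.0068 with limma-voom, 0.12 and 0.015 with its block, 0.01 and 0.11 with offsets, and 0.10 and 0.16 with offsets and block. Cox5a was 0.03 with the replicate block and 0.0067 with offsets and block, where Uqcr11 was 0.020. Without COL1 and COL2, Cox4i1 was -0.34, Cox6a1 -0.31, Cox7a2 -0.013, Ndufa6 -0.055, Ndufaf1 -0.18, Ndufaf4 -0.073, Ndufaf8 -0.15, Ndufs7 -0.33, Ndufs8 -0.57 and Uqcrq -0.057. With SI1, SI4, COL3 and COL4 alone, Cox4i1 was -0.20, Cox6a1 -0.082, Cox7b -0.083, Ndufaf1 -0.20, Ndufaf4 -0.28, Ndufaf8 -0.017, Ndufs7 -0.21, Ndufs8 -0.47 and Uqcrq -0.083. Without single libraries, Cox4i1 ranged from -0.11 to 0.27, Cox7a2l from -0.16 to 0.067, Ndufs8 from -0.24 to 0.36, Ndufaf4 from -0.042 to 0.26, Ndufaf8 from -0.084 to 0.22, Ndufs7 from -0.031 to 0.46, Uqcrq from -0.021 to 0.32, Cox5a from -0.46 to 0.023, Cox8a from -0.30 to 0.093, Atp5g1 from -0.42 to 0.021, and the ratio of Cox6b1 to Cox6b2 from -0.57 to 0.35.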
